A study of Mus musculus with 12 samples.

Results

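The genes described here encode the scaffold proteins that hold the postsynaptic density together: the Dlg family (Dlg1 to Dlg4), the Shank family (Shank1 to Shank3) and the Homer family (Homer1 to Homer3). They were chosen by name, as every main probeset of the array whose gene symbol is one of these 10. Of the 10 genes, 8 had main probesets, with 145 probesets among the 221417 main probesets that carry a symbol, while Shank1 and Shank2 were not analysed here. A probeset is a group of short probes in the same exon, or in part of it, and its intensity (PLIER signal, on a linear scale) was taken from Mouse Exon 1.0 ST arrays of Affymetrix. Total RNA came from whole brains of 12 newborn females, 6 KIS +/+ (wildtype) and 6 KIS -/- (KIS-ko), in 6 litters that each gave 1 pair of littermates. KIS is a kinase of splicing factors, encoded by Uhmk1, and the knock-out is present in all cells of the animal from conception. The mice had been backcrossed to C57BL6/N, and no group received a treatment. Each array holds the RNA of 1 brain, so cells of all types are mixed in it, and fewer cells of a type cannot be told apart from less RNA per cell.

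An excitatory synapse receives glutamate on the tip of a dendritic spine, where receptors and their signalling enzymes are fixed in a dense protein plate. Dlg proteins lie closest to the membrane and bind the tails of NMDA and potassium channels and of AMPA receptor partners through PDZ domains. Proteins of the Dlgap family link them to Shank proteins, which in turn bind Homer, and Homer ties the plate to metabotropic glutamate receptors and to calcium release channels. A long Homer protein carries a coiled coil that pairs it with another, and a short Homer1 form without it, made after strong activity, undoes these links. In the newborn forebrain few spines exist, and of the Dlg proteins SAP102, the product of Dlg3, is known for its part in early synapses whereas PSD-95, the product of Dlg4, builds up later.

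The labels were checked first. Uhmk1 had a gene value of 10.97 ± 0.06 in wildtype and 8.85 ± 0.15 in KIS-ko (SD, n = 6 each), the gene value being the mean over probesets of log2(signal + 16). It was lower by 2.11 on the log2 scale (SE 0.07) in 6 of 6 litters, with an adjusted p of 2.91e-07 by limma with the litter as a block. It was the only one of 17279 genes that passed an adjusted p of 0.05, which is 0.00579% of them. Over all genes the differences had a median of -0.04, and 69.8% were below 0 in the deposited scaling. With the arrays centred on their medians 38.7% were below 0, with a median of 0.02, and with the arrays quantile-normalized again 48.3% were, with a median of 0.0025, so the direction of a small difference depends on the scaling. The median signals of the 12 arrays over the main probesets lay between 478 and 546. The whole difference between genotypes varied with the litter: the median over all genes ran from -0.11 in litter 6 to 0.07 in litter 4. All 7 measured neuron markers (Tubb3, Snap25, Syn1, Syt1, Stmn2, Dcx and Gap43) had a median kept probeset above the line of the intron controls described next. The share of all genes with such a median was not taken.

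The level at birth was read against 5222 control probesets that lie in introns, since intensities of different probesets cannot be ranked against each other. The 95th percentile of the control signals over the wildtype arrays was 714 and their median 117. By this measure 90 of the 145 scaffold probesets (62.1%) were above the 95th percentile in wildtype, against 41.8% of all main probesets. The pooled share hides differences between genes, from 20 of 20 in Dlg4 and 22 of 25 in Dlg2 to 5 of 16 in Homer2 and 2 of 9 in Homer3. On single arrays, 77 scaffold probesets were above it on all 12, 41 on none, and the other 27 on some. Signals below it were not distinguishable from the brighter intron controls, which is not evidence that the exon is absent.

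**Figure D1:**
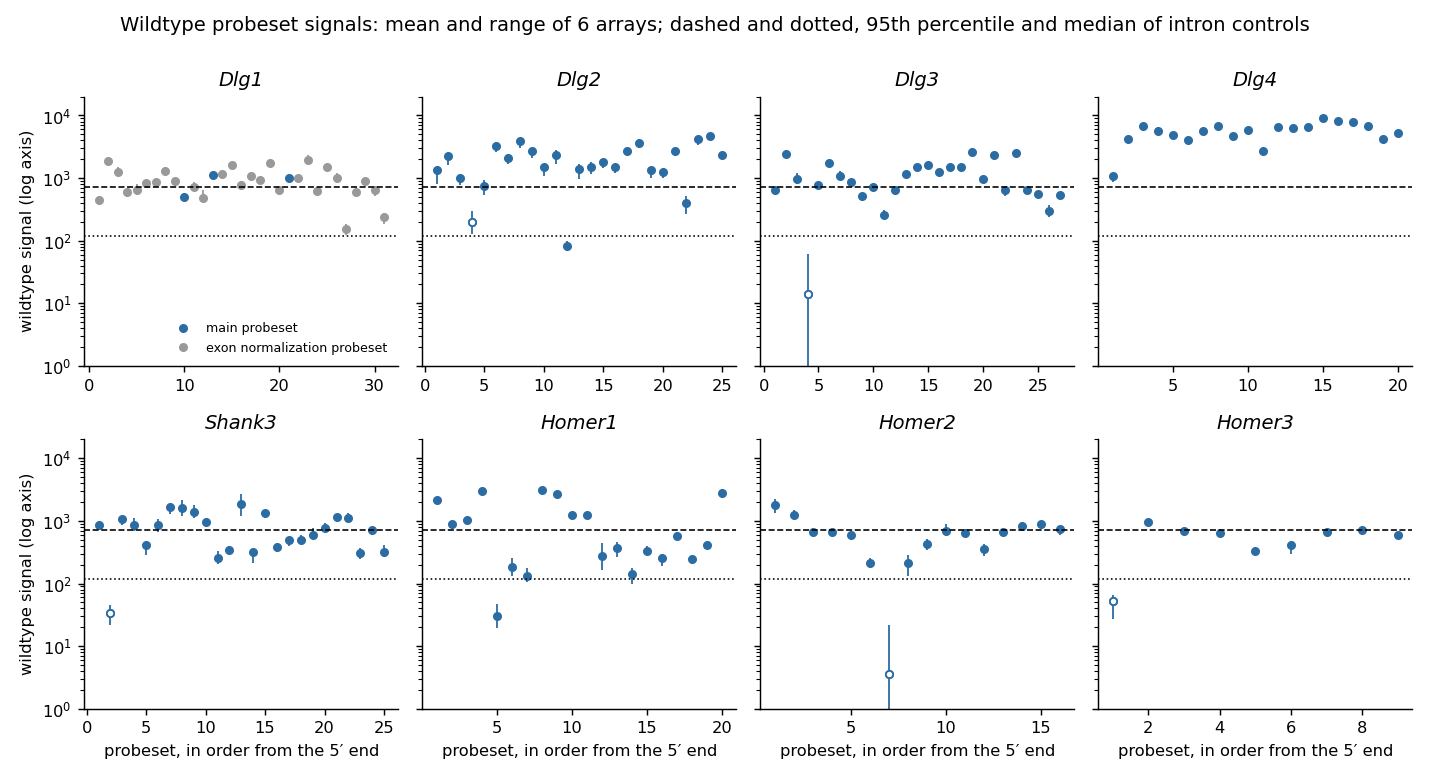
Wildtype signal (log axis) of each exon probeset of the 8 measured genes, in order from the 5′ end, as mean (point) and range (line) of 6 arrays; open points are probesets rejected for their spread, and the lines of 2 of them, in Dlg3 and Homer2, run below the axis. Heights of different probesets are not comparable with each other, only with the dashed line (714, 95th percentile of the intron controls) and the dotted line (117, their median): all 20 Dlg4 probesets lie above the dashed line, and 9 of 20 Homer1 probesets do.

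Among the Dlg genes, Dlg4, which encodes PSD-95, had all 20 of its main probesets above the 95th percentile of the controls on each of the 12 arrays. Their wildtype means ran from 1062 to 9153. This is uncommon: of 3127 genes with at least 20 main probesets, 2.78% had all of them above that line. Dlg4 lies on chromosome 11 from 69832422 to 69858163, plus strand, in the coordinates of the deposited table, whose genome build is not given in the sources used here. Dlg2, which encodes PSD-93, spans chromosome 7 from 98239519 to 99593087, and 22 of its 25 probesets were above the line in wildtype. The 3 that were not had wildtype means of 199, 81.4 and 402, and 2 of these are marked as open to cross-hybridization.

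Dlg3, which encodes SAP102, lies on the X chromosome (97963094 to 98013521). It had 17 of 27 probesets above the line in wildtype, and between 13 and 20 on single arrays. The run of 8 probesets from 97992031 to 98009694 was above the line on all 12 arrays, while the last 4, from 98011558 to 98013521, had wildtype means of 299 to 640. Dlg1, which encodes SAP97, has only 3 main probesets, 2 of them above the line on each array. The array uses Dlg1 as a normalization gene and lists its other exons under another type. With these 28 added, 20 of 31 Dlg1 exon probesets were above the line in wildtype, and the 2 Dlg1 intron controls had wildtype means of 55.0 and 122.

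Shank3, the only Shank gene measured, lies on chromosome 15 (89331742 to 89390632) and encodes a scaffold with ankyrin repeats, an SH3 domain, a PDZ domain and a long proline-rich stretch. It had 13 of 25 probesets above the line. These fell in blocks: of the first 10 probesets 8 were above the line, of the 9 from 89351551 to 89362870 only 2, and of the last 6 there were 3. One of those 2, with 1882 ± 624 (SD, n = 6) in wildtype, is marked as open to cross-hybridization.

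In the Homer family, Homer2, on the minus strand of chromosome 7 (88746703 to 88851823), had 5 of 16 probesets above the line, among them both probesets at its 5′ end with 1802 and 1235. Homer3, on chromosome 8 (72809135 to 72815493) and known mainly from cerebellar Purkinje cells, had 2 of 9, and between 1 and 4 on single arrays. Homer1, on chromosome 13 (94074786 to 94173564), had 9 of 20, the same 9 on all 12 arrays.

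Along Homer1, probesets above and below the line lay in blocks. The first 4 probesets (94074786 to 94075141) had wildtype means from 909 to 2987 and were above the line on all arrays. The next 3 (94078039 to 94078315) had 30.0, 186 and 132 and were above it on none. Then came 4 probesets (94111711 to 94126027) with 1228 to 3172, again above it on all arrays. The 2 probesets just after the last of these (94126035 to 94126572), which the table assigns to a transcript of their own, had 272 and 363. The 6 probesets from 94136258 to 94172172 had 144 to 565 and were above the line on no array. The last and longest probeset (94172231 to 94173564) had 2819 ± 306 (SD, n = 6). Both genotypes showed these blocks, since the same 9 probesets were above the line on each of the 12 arrays. The table gives a transcript for each probeset but does not say which transcript is the short or the long form. The blocks were not assigned to either form.

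**Figure D2:**
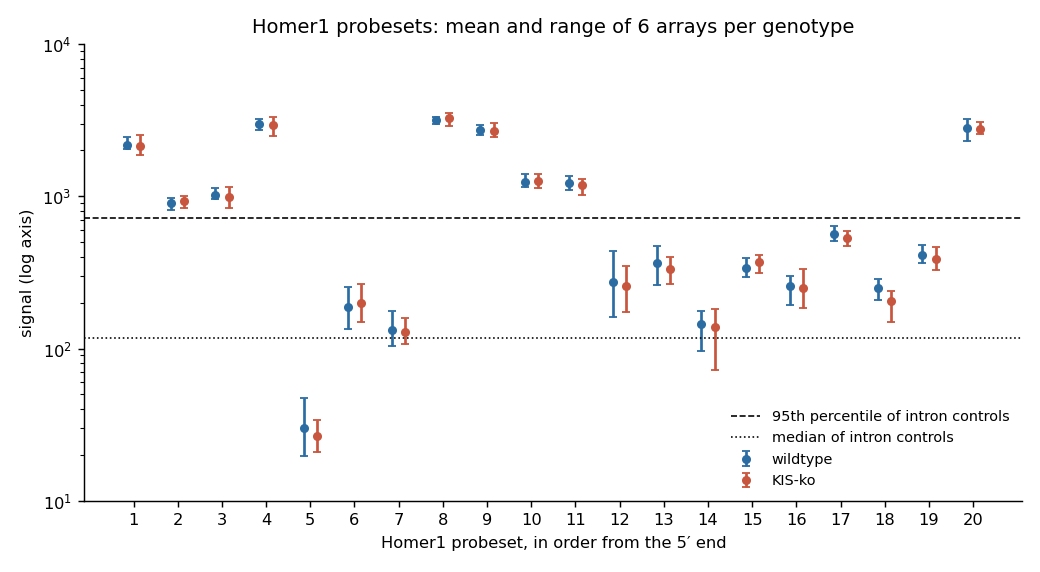
Signal (log axis) of the 20 Homer1 probesets in order from the 5′ end, as mean (point) and range (bar) of 6 arrays for each genotype. Probesets 1 to 4, 8 to 11 and 20 lie above the dashed line (714, 95th percentile of the intron controls) in both genotypes and the other 11 lie below it, and the ranges of wildtype and KIS-ko overlap at every probeset.

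The 2 annotated starts of Homer1 differ in their promoters. RefSeq gives both on assembly GRCm38.p6, where 300 bases were read from 250 before to 50 after each start. They are shown because the first 4 probesets were above the line and the next 3, which would be those nearest the second start, were below it. Both are on the plus strand, and capitals mark TGACG or its reverse complement CGTCA, the core bound by factors of the CREB family, searched on both strands.
first start, chr13:93303507-93303806: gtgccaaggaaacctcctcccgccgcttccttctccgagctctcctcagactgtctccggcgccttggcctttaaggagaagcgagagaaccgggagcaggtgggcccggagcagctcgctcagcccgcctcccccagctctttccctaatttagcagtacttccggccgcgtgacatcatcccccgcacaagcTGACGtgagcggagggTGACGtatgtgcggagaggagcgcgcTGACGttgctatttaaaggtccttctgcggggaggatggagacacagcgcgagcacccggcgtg
second start, chr13:93307784-93308083: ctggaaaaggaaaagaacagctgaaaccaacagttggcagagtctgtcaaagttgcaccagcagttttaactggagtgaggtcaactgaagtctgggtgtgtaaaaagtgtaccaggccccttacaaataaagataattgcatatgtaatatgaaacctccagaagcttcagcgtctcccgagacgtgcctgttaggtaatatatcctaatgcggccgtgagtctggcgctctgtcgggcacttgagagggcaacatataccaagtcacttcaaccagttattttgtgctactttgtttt
The first window holds the motif 3 times, 26 CpG and 63.0% G or C. The second holds it at no place and has 7 CpG and 44.7% G or C. Of 32851 windows of this length, 20.8% hold the motif at least once, and among the 18 windows of the 8 scaffold genes 3 do (Homer1, Dlg3 and Dlg4). The full palindrome TGACGTCA was in none of the 18 and in 1.79% of all windows. The builds of the windows and of the probesets may differ, so that the match of a window to its probesets rests on the order of the starts alone.

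The comparison of genotypes asked whether loss of KIS changed the level of any scaffold gene. None of the 8 passed an adjusted p of 0.05 (background 0.00579%), and none had an unadjusted p below 0.05, which 6.16% of all genes had. In the deposited scaling all 8 estimates were below 0, against 69.8% of all genes, and their median was -0.04, like that of all genes. With the arrays centred on their medians 2 of the 8 were below 0, against 38.7% of all genes, and with the arrays quantile-normalized again 4 were, against 48.3%. No gene had KIS-ko values that were separate from the wildtype values, which happened in 0.208% of all genes. Before the fit, probesets with a relative SD above 0.4 in either genotype were rejected as in the methods of the study, which left 140 of the 145 scaffold probesets.

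**Figure D3:**
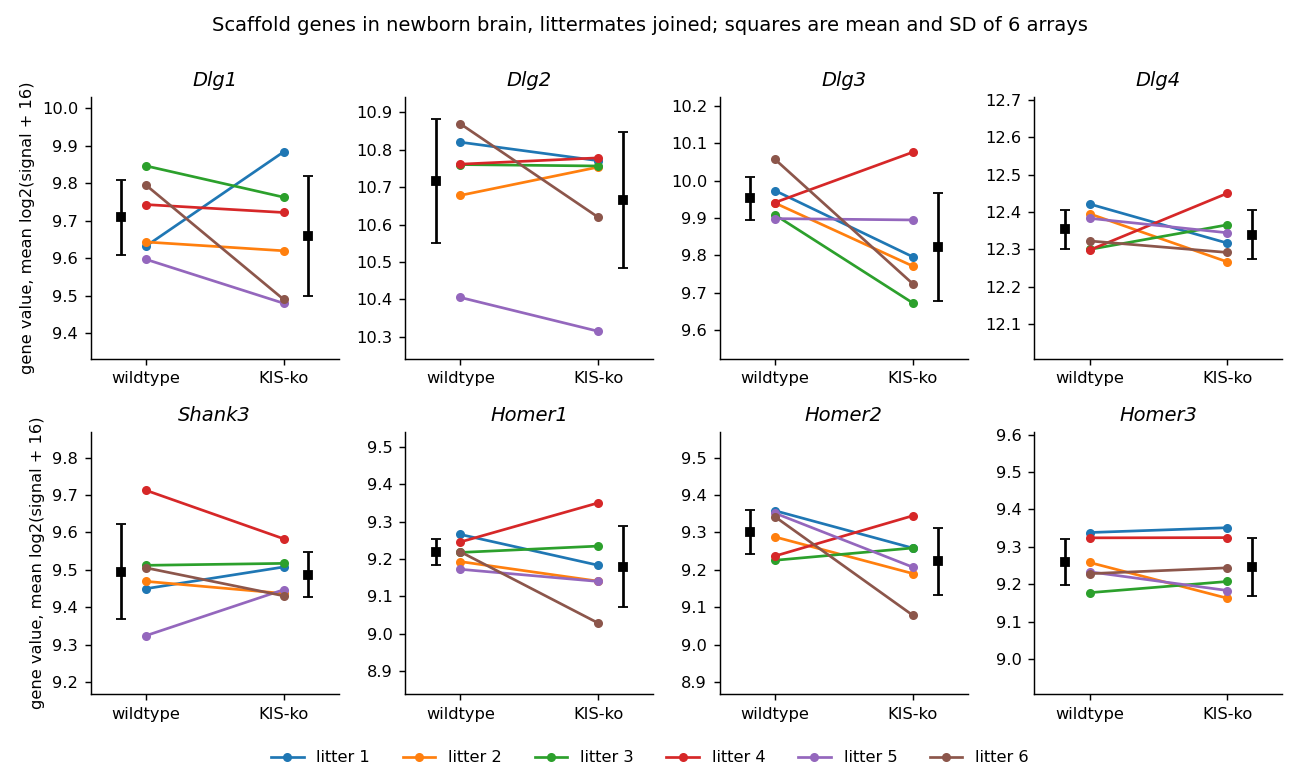
Gene value (mean over kept probesets of log2(signal + 16)) of each scaffold gene in wildtype and KIS-ko brain, with littermates joined by a line and the mean and SD of 6 arrays as squares; every panel spans 0.7 log2 units. The 2 genotypes overlap in all 8 genes, and in Dlg2 both littermates of litter 5 lie below the other arrays.

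Dlg3 had the largest difference of the 8. Its gene values ranged from 9.90 to 10.06 in wildtype, with a median of 9.94. In KIS-ko they ranged from 9.67 to 10.08, with a median of 9.78. The KIS-ko values were below all wildtype values in 5 of 6 arrays, and the KIS-ko animal of litter 4 had the highest value of the 12. The mean difference was -0.13 (SE 0.06, 95% interval -0.27 to 0.01), lower in 5 of 6 litters, with an adjusted p of 0.685 by limma. Without litter 4 it was -0.18 with an adjusted p of 0.136 by limma. Without litter 6 it was -0.09, with an adjusted p of 0.9999. The whole table moved as well, with a median of all genes of -0.06 without litter 4 and -0.02 without litter 6. An unadjusted p below 0.05 by limma was reached by 4017 genes without litter 4 and 579 without litter 6, against 1065 with all litters. Centring the arrays on their medians made the Dlg3 difference -0.07, while the median of all genes moved to 0.02.

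In the deposited scaling all 26 kept Dlg3 probesets had a lower mean in KIS-ko, by between 0.02 and 0.28 on the log2 scale. Among 2789 genes with at least 20 kept probesets, 1.97% had all of them lower in that scaling, where 69.8% of all genes were below 0. Neither count was taken with the arrays rescaled. No Dlg3 probeset was lower in all 6 litters, and probesets of a gene share the same 12 RNAs, so that they are not independent readings. By the measure of the study's methods, the mean of probeset ratios weighted by the inverse of their relative SD, Dlg3 was at 0.936 ± 0.087 of wildtype (SD over 6 litters), a change of -6.36%. It was the only scaffold gene past the 6% limit of that measure, which 26.4% of all genes passed and 8.84% passed downward. The ratio ran from 0.836 in litter 6 to 1.07 in litter 4, and without litter 1, 2, 3 or 6 the gene was inside the limit, at 0.943, 0.942, 0.949 and 0.958. Without litter 1 the scaffold gene past the limit was Dlg1, at 0.933.

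In the deposited scaling Dlg4 had the smallest difference among Dlg1 to Dlg4. Its values lay between 12.30 and 12.42 in wildtype (median 12.35) and between 12.27 and 12.45 in KIS-ko (median 12.33), and the wildtype range fell inside that of KIS-ko. The difference was -0.01 (SE 0.05), with a 95% interval from -0.13 to 0.10. Without litter 4 it was -0.047. With the arrays centred on their medians it was 0.043, larger in size than that of Dlg1 (0.0063) or Dlg2 (0.0064). Its 20 probeset differences lay between -0.09 and 0.03, the narrowest span among the genes with 8 or more kept probesets here.

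Dlg2 ranged from 10.41 to 10.87 in wildtype (median 10.76) and from 10.31 to 10.78 in KIS-ko (median 10.76). The difference was -0.05 (SE 0.05, 95% interval -0.17 to 0.07), lower in 4 of 6 litters. In litter 6 it was -0.25, and without that litter the estimate was -0.01. Both littermates of litter 5 were low, with 10.41 and 10.31, and the mean of that pair was 10.36 where the other 5 pairs had 10.72 to 10.80. Of its 24 kept probesets 19 were lower in KIS-ko, and 2 of these were lower in all 6 litters.

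Dlg1 ranged from 9.60 to 9.85 in wildtype (median 9.69) and from 9.48 to 9.88 in KIS-ko (median 9.67). Its difference was -0.05 (SE 0.07, 95% interval -0.20 to 0.10). It was lower in 5 litters, by 0.02 to 0.31, and higher by 0.25 in litter 1. Without litter 1 the estimate was -0.11 and without litter 6 it was 0.0012. With all 31 exon probesets the difference was -0.04, lower in 4 of 6 litters, with an adjusted p of 0.790 by limma.

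Shank3 had wildtype values of 9.32 to 9.71 (median 9.49) and KIS-ko values of 9.43 to 9.58 (median 9.48). The KIS-ko values all fell inside the wildtype range. The difference was -0.01 (SE 0.05, 95% interval -0.12 to 0.10), lower in 3 litters and higher in 3. In litter 4, where most genes were higher in KIS-ko, Shank3 was lower by 0.13, and without that litter its estimate was 0.02.

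**Figure D4:**
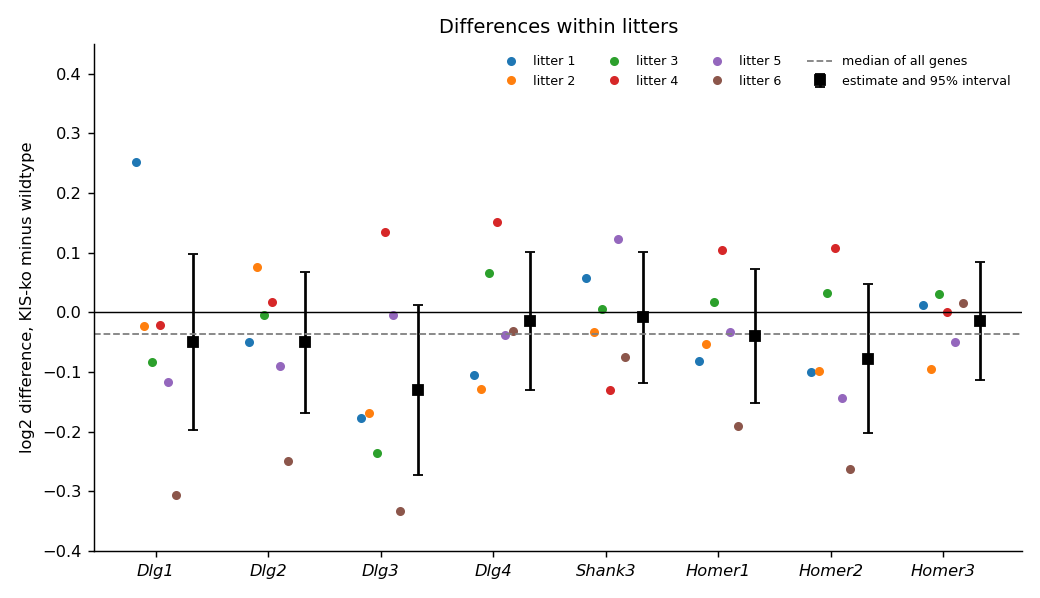
Log2 difference of KIS-ko minus wildtype for the 8 scaffold genes: coloured points are the 6 litters, squares the estimate with its 95% interval from limma, the dashed line the median of all genes (-0.04). Every interval includes 0, the interval of Dlg3 lying farthest down (-0.27 to 0.01).

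Homer2 was the scaffold gene with the next largest difference after Dlg3 in the deposited scaling. Wildtype values ran from 9.23 to 9.36 (median 9.31) and KIS-ko values from 9.08 to 9.34 (median 9.23). It was lower by 0.08 (SE 0.06, 95% interval -0.20 to 0.05), in 4 of 6 litters, with an adjusted p of 0.690 by limma. Without litter 4 it was -0.11 and without litter 6 it was -0.04. Of its 15 kept probesets 11 were lower.

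Homer1 varied little between wildtype brains, from 9.17 to 9.27 (median 9.22), and more in KIS-ko, from 9.03 to 9.35 (median 9.16). The difference was -0.04 (SE 0.05, 95% interval -0.15 to 0.07), lower in 4 of 6 litters, and litters 4 and 6 gave its extremes of 0.10 and -0.19. Without litter 4 the estimate was -0.07 and without litter 6 it was -0.01. The fold change by the methods' measure was 0.993 ± 0.054 (SD over 6 litters).

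Homer3 followed its litter closely. Its values were 9.18 to 9.34 in wildtype (median 9.25) and 9.16 to 9.35 in KIS-ko (median 9.23). Differences within litters had an SD of 0.05, smaller than in all but 1.27% of genes, where the median gene had 0.14. The mean difference was -0.01 (SE 0.04, 95% interval -0.11 to 0.08), and 4 of 6 litters were higher. It depended on the probesets used, being -0.073 without the relative SD filter and 0.066 without dim probesets. With the arrays centred on their medians it was 0.041.

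The differences within pairs varied from litter to litter. Each litter holds 1 pair of arrays, so that a litter cannot be told apart from its animals or arrays. In litter 6 the median difference of the 8 genes was -0.22, with 7 of the 8 lower, and the median of all genes was -0.11. In litter 4 it was 0.06 with 2 genes lower, and that of all genes was 0.07. In litters 1, 2, 3 and 5 the scaffold medians were -0.07, -0.07, 0.01 and -0.04 and those of all genes -0.05, -0.09, 0.00 and -0.05. The log2 ratio of the array medians within the pair was -0.17 in litter 6 and 0.10 in litter 4, and its part in the scaffold differences was not tested.

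Single probesets were then compared, since a change of one exon would be diluted in the gene value. Of the 140 kept scaffold probesets, 74.3% were lower in KIS-ko, and 66.2% of all kept probesets were. With Dlg3 left aside it was 68.4% of 114. None passed an adjusted p of 0.05 (0.00487% of all probesets did) and 5 had an unadjusted p below 0.05 (3.57%, against 6.63% of all).

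**Figure D5:**
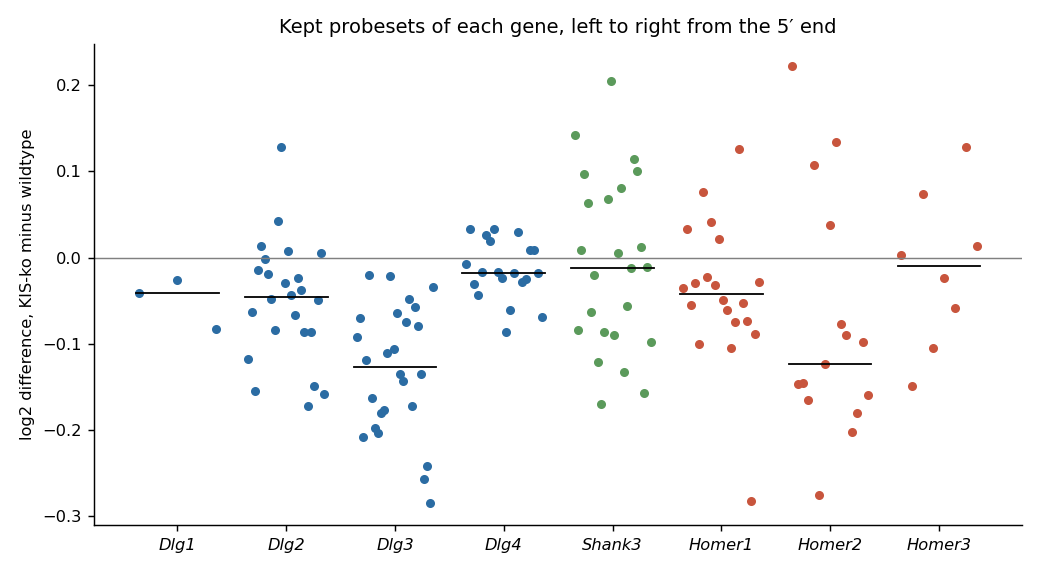
Log2 difference of KIS-ko minus wildtype for each kept probeset of the 8 scaffold genes, left to right from the 5′ end within a gene, with the gene's median as a line (Dlg genes blue, Shank3 green, Homer genes red). In the deposited scaling, shown here, all 26 Dlg3 points lie below 0. The 20 Dlg4 points stay between -0.09 and 0.03, and the first Homer2 probeset lies at 0.22.

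The 5 probesets were 3 in Dlg3, 1 in Shank3 and 1 in Homer2. In Dlg3 the lowest p belonged to the probeset at 97968169 to 97968291, with 874 ± 55.3 in wildtype and 761 ± 68.2 in KIS-ko (SD). It was lower by 0.20 (SE 0.08) in 5 of 6 litters, with an adjusted p of 0.751 by limma. In Shank3 it was the one at 89335829 to 89335887, with 963 ± 120 and 853 ± 94.3, lower by 0.17 (SE 0.07) in 5 of 6 litters. In Homer2 it was the dim one at 88763647 to 88763771, with 210 ± 30.4 and 172 ± 35.2, which lay below the line of 714 on all arrays. It differed by -0.28 (SE 0.09).

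The probesets of lowest p in the other genes were no nearer the threshold. In Homer1 it was one of the dim downstream probesets (94162999 to 94163059), with a difference of -0.28 (SE 0.14). Homer3 had -0.10 (SE 0.06) at 72813358 to 72813389. In Dlg2 it was the third probeset from the 5′ end, with -0.15 (SE 0.09). Dlg1 and Dlg4 had -0.08 (SE 0.08) and -0.09 (SE 0.07).

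The exon profile itself was compared by the splicing index, the log2 signal of a probeset minus the mean of the other kept probesets of its gene on the same array. None of the 140 scaffold probesets passed an adjusted p of 0.05 (background 0.000985%), the lowest adjusted p by limma being 0.776. An unadjusted p below 0.05 was reached by 4 of them (2.86%, against 6.09% of all probesets), 3 in Homer2 and 1 in Shank3. That count was 13 without litter 4 and 2 without litter 5 or litter 6, so nothing was read from its place against the background. All 8 genes also had adjusted p values of 0.404 or more by the Simes test of diffSplice.

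The 3 Homer2 probesets did not share a direction. The first probeset (88851738 to 88851823) had 1802 ± 326 in wildtype and 2084 ± 205 in KIS-ko, and its splicing index was higher by 0.32, in 4 of 6 litters. Its wildtype signal was 1344 in litter 2 and 2215 in litter 5, a spread wider than the difference. The probeset at 88759361 to 88759385 was higher by 0.23 (SE 0.08) in 5 of 6 litters, with an adjusted p of 0.776, and is marked as open to cross-hybridization. The third, at 88763647 to 88763771, was the dim one named above and was lower by 0.21. In Shank3 the probeset at 89335829 to 89335887 had a splicing index lower by 0.17 (SE 0.07), in 5 of 6 litters. In the remaining 6 genes no splicing index had an unadjusted p below 0.05, Homer1 among them.

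Binding partners of the scaffold were read from a list of 46 genes, of which 37 were measured. The list holds Dlgap proteins, CaMKII subunits, AMPA receptor auxiliary subunits, Homer-bound calcium channels of the Itpr and Ryr families and other PDZ scaffolds. In 29 of the 37 the median kept probeset was above the intron control line. The share of all genes with such a median was not taken, so the count has no background. None passed an adjusted p of 0.05 (background 0.00579%) and none had an unadjusted p below 0.05 (background 6.16%). Of the 37, 30 had an estimate below 0 and 7 above it in the deposited scaling, where 69.8% of all genes were below 0. Their median was -0.03 and their range ran from -0.10 to 0.04. None was past the 6% limit of the methods' measure, which 26.4% of all genes passed in either direction.

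The 4 partners of lowest p were Cttn, Magi3, Sipa1l1 and Itpr2. Cttn, which encodes the Shank-binding actin regulator cortactin, was lower by 0.10 (SE 0.05) in 6 of 6 litters, with an adjusted p of 0.685 by limma. Magi3, another PDZ scaffold, was lower by 0.09 (SE 0.05) in 5 of 6 litters. Sipa1l1, which encodes a spine protein that regulates Rap, was lower by 0.08 (SE 0.05) in 5 of 6 litters. Itpr2, an IP3 receptor whose median kept probeset was below the line, had a difference of -0.08 (SE 0.05). Dlgap1 and Dlgap4, which join Dlg to Shank proteins, had -0.02 and 0.02, and the CaMKII genes Camk2a and Camk2b had -0.06 and -0.04.

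Genes of the activity response, of which the short Homer1 form is one, did not differ detectably. Of 9 measured immediate early genes, 3 had an estimate below 0 (69.8% of all genes) and 6 above it, with a median of 0.02, and none had an unadjusted p below 0.05 (6.16% of all genes). By the methods' measure 2 of the 9 were past the 6% limit (26.4% of all genes in either direction), Egr1 at 1.11 ± 0.17 and Fos at 1.06 ± 0.21 (SD over 6 litters). The gene value of Fos was lower in 5 of 6 litters and its median kept probeset had a wildtype signal of 129, so no direction was read for it. Egr1 also had the highest estimate, 0.11 (SE 0.08), and Arc had -0.03 (SE 0.06). Only Egr1 and Dusp1 had a median kept probeset above the intron control line, a measure for which the share of all genes was not taken.

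For every list of cell type markers, the mean gene value overlapped between the genotypes. The mean gene value of the 7 neuron markers was 12.52 to 12.62 in wildtype and 12.49 to 12.59 in KIS-ko, with a median difference of -0.03 and 6 of 7 estimates below 0. All 6 astrocyte and radial glia markers had an estimate below 0 in the deposited scaling (69.8% of all genes), with a median of -0.09, and their mean value was 11.04 to 11.28 in wildtype and 10.97 to 11.18 in KIS-ko. One of them, Gfap, had a difference of -0.27 (SE 0.08) in 5 of 6 litters, with an unadjusted p of 0.00686 and an adjusted p of 0.685 by limma, and a fold change of 0.883 by the methods' measure. Its median kept probeset had a wildtype signal of 488, below the intron control line of 714, as in no other of the 6. It was the only gene of the scaffold, partner, immediate early and marker lists with an unadjusted p below 0.05. Oligodendrocyte lineage, microglia, endothelium, meninges and choroid plexus, erythroid and muscle markers had medians from -0.05 to 0.02. The part of these lists in the Dlg3 difference was not tested.

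Each scaffold gene was also matched to the gene most like it over the 12 arrays, by Pearson's r after the array median and the genotype mean had been taken off, among all other genes with at least 4 kept probesets (14704, or 14705 for Dlg1). Dlg2 was matched with Ehbp1 at r = 0.975, and with the 2 arrays of litter 5 left out r was 0.862 over 10 arrays, Ehbp1 being low in that litter too with 9.48 and 9.38. Dlg4 was matched with Rpl17 (0.955), Shank3 with Sergef (0.948), Homer1 with Zswim6 (0.947) and Homer2 with Extl3 (0.946). Homer3 was matched with Ctnnd2 (0.937), Dlg3 with Zbtb8b (0.930) and Dlg1 with Khdrbs2 (0.887). Without litter 5 r was 0.905 for Dlg4, 0.956 for Shank3, 0.942 for Homer1 and 0.874 for Homer2. It was 0.947 for Homer3, 0.898 for Dlg3 and 0.907 for Dlg1. By ranks (Spearman) over 12 arrays, Dlg4 and Rpl17 had 0.755, the lowest of the 8 matches, the others having 0.853 to 0.965. No scaffold gene was matched with another scaffold gene, and the closest pair among the 8 was Dlg4 and Homer2 at 0.705. These are descriptions over arrays that share litters, with the best of many genes taken.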

How the data were processed

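Brains of 6 wildtype and 6 KIS-ko newborn females, 1 pair from each of 6 litters, were hybridized to exon arrays. The authors ran the Affymetrix Expression Console (exon-level quantile normalization, PLIER), and the deposited intensity is the linear PLIER signal of each probeset. The genome build is not given in the sources used here. Arrays have no read depth, and their number limits the precision.

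The 221417 main probesets with a symbol were used and 15948 with a relative SD above 0.4 in either genotype were rejected, which left 205469 probesets of 17279 genes. Gene values, single probesets and splicing indexes (genes with at least 3 probesets) were tested on log2(signal + 16) with limma 3.58.1 in R 4.3.3, the litter being a block in the design, and p-values were adjusted by Benjamini-Hochberg over the whole table at 0.05. The fold change of the methods weighted the mean of 6 ratios per probeset by the inverse of its relative SD. The scripts were tested on simulated data. Python 3.11.15, pandas 2.3.3 and matplotlib 3.10.9 did the rest.

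The pairing comes from the litter given in the labels. Deviations of littermates from their genotype means correlated at 0.27, -0.06, 0.14, -0.11, 0.47 and -0.11 in litters 1 to 6. The members, gene lists and tests were chosen with earlier results of these data known. The named genes are the 8 measured members, Uhmk1, the 4 partners of lowest p, the probeset of lowest p in each member, and the most alike gene. Other genes of the lists, and the Homer2 and Dlg2 probesets described beside these, were chosen after their values were seen. Alternatives were other pseudocounts, filters, scalings, summaries, probeset choices and fits, and each litter left out in turn. The use of exon normalization probesets was added after seeing the data.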

Additional observations from a re-analysis of the deposited data

Results flagged for a closer look

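In 16 sets of 6 arrays (8 scaffold genes in 2 genotypes), each set was searched for a value far from the others by Dixon's ratio, the gap to the nearest value over the whole range. Chance gives such a value in about 1 set in 20. It was found in 1 set: Dlg2 in the KIS-ko animal of litter 5, with a gene value of 10.31, the next lowest being 10.62, a ratio of 0.658. The wildtype littermate was also the lowest of its genotype, at 10.41.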

How the results depend on the processing

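No scaffold gene and no scaffold splicing index was called at an adjusted p of 0.05 under any alternative run. Of 144 scaffold differences under alternatives, 124 kept their sign and 20 did not. Dlg3 and Homer2 kept theirs in all, from -0.19 to -0.07 and from -0.11 to -0.02. Arrays centred on their medians gave 2 scaffold genes lower and none past 6%, against 38.7% and 32.8% of all genes. Dlg1 was then at 0.0063, Dlg2 at 0.0064, Dlg4 at 0.043, Shank3 at 0.047, Homer1 at 0.015 and Homer3 at 0.041. Arrays quantile-normalized again gave 4 lower, with Dlg4 at 0.014, Shank3 at 0.040, Homer1 at 3.0e-05 and Homer3 at 0.039. Without dim probesets, Shank3 was at 0.015 and Homer3 at 0.066, and with the median over probesets Dlg4 was at 0.0020 and Shank3 at 0.051. Leaving out a litter moved Dlg1 between -0.11 and 0.0012, Dlg4 between -0.047 and 0.0087, Shank3 between -0.035 and 0.016 and Homer3 between -0.023 and 0.0018. Without the relative SD filter, the fold change of Dlg3 was 1.10 and 2 scaffold genes were past 6%, Homer2 being at 3.83, since 1 rejected probeset in each gene has signals near 0. In that run 34.8% of all genes were past 6%. An unadjusted p below 0.05 was reached by 1 scaffold gene, Dlg3, with the median over probesets, with trend and robust moderation, and without litter 4. In these runs it was reached by 1090 of 17279, 1192 of 17279 and 4017 of 17271 genes.

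Over litters left out, 0 to 2 scaffold genes were past 6%, 0 to 1 had an unadjusted p below 0.05, and 2 to 13 scaffold splicing indexes did, 13 without litter 4. Genes past 6% were 19.3% to 44.2%, genes at an unadjusted p below 0.05 were 579 (without litter 6) to 4017 (without litter 4), genes called 1 to 4 and genes with a called splicing index 2 to 4. Genes called were 2 with a pseudocount of 64, without the relative SD filter and with trend and robust moderation, and 5 with that filter at 0.2 or without dim probesets, where 644 had an unadjusted p below 0.05. Genes with a called splicing index were 9 with a pseudocount of 64 or without dim probesets, 0 with probesets matching 1 place and 290 by diffSplice. With no replicate block they were 14, 1017 genes had an unadjusted p below 0.05 (1065 with the block) and Dlg3 kept -0.13. The cause of these changes was not tested. With the median of the intron controls as the line, scaffold probesets above it were 3, 24, 26 and 20 for Dlg1 to Dlg4, 24 for Shank3 and 19, 15 and 8 for Homer1 to Homer3.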
